A study of Mus musculus with 8 samples.

Results

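Integrin and laminin subunits were followed in p53 knockout mouse bone marrow-derived mesenchymal stem cells (mBMSCs) that carried extra cFos. Genes were taken as members when their symbol was Itga or Itgb with a number or letter, or Lama, Lamb or Lamc with a number. Described here are 36 such genes, of 23503 genes in the deposited tables, with 26 integrin subunits (17 alpha and 9 beta) and 10 laminin chains. Names that only begin alike were left out, namely Itgb1bp1, Itgb1bp2, Itgb3bp and Itgbl1.

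Every cell in the series lacked p53, came from single clones and had been passaged less than 20 times, in MesenCult medium. The cFos arm was cells transduced with a cFos retrovirus, which expresses the product of Fos, a subunit of the transcription factor AP-1. The Luc arm was the control, cells transduced with a luciferase (Luc) retrovirus, so both arms had been through transduction. Clones 2, 4, 8 and 12 each gave 1 cFos and 1 Luc library of polyadenylated RNA, 8 libraries in all, and a name such as cFos 8 below stands for the cFos library of clone 8. The question was how the cFos retrovirus changed these cells. No clone and virus had a second library. Errors are SDs over the 4 clonal lines. The main test set the difference of the arms against the spread between lines. Another fit, with the clone as a block, set it against how much the cFos minus Luc difference varied between clones.

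Integrins are adhesion receptors made of an alpha and a beta subunit, which bind matrix outside the cell and the actin skeleton inside it. Laminins are cross-shaped trimers of an alpha, a beta and a gamma chain, and they form the sheet of basement membranes together with type IV collagen, nidogen and perlecan. In marrow, stromal cells and vessels make laminins, and blood-forming cells bind them and fibronectin through integrins. Levels are given in FPKM, the fragments counted for a transcript divided by its length and by the library's mapped fragments, so that genes can be set beside each other. Differences are cFos minus Luc on a log2(FPKM + 0.5) scale, where the added 0.5 makes changes of scarce genes look smaller. In bulk RNA, fewer cells of a type and less RNA per cell cannot be told apart.

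The libraries held 6.93 to 9.14 gigabases aligned to transcripts. Fos had 589, 675, 1019 and 505 FPKM in cFos clones 2, 4, 8 and 12, against 76.2, 41.1, 302 and 43.5 FPKM in the Luc libraries of those clones. Fos was higher in the cFos library of every clone (log2 difference 3.06, adjusted p = 0.0184), and Luc 8 was the highest of the Luc libraries. All 12 stromal markers (Pdgfra, Col1a1, Prrx1 and others) reached 1 FPKM, and 9 did so in every library. Those that did not were Thy1 (0.0916 to 23.8 FPKM), Nt5e (0.167 to 7.94 FPKM) and Eng (0.258 to 2.12 FPKM). Between the arms, Vim and Pdgfrb were higher in cFos cells (limma adjusted p = 0.00676 and 0.0442) and Cxcl12 was lower (limma adjusted p = 0.0154). The other stromal markers did not pass or were not tested. None of the 7 endothelial markers or the 5 skeletal muscle markers reached 1 FPKM, and of the 8 leukocyte markers 1 did. Of the 5 platelet markers 3 reached 1 FPKM, as did 2 of the 5 Schwann and neural crest markers, with S100b at 10.5 FPKM in cFos 8 and 15.4 FPKM in Luc 8 and Sox10 at 0 in all libraries.

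Of the 36 members, 19 had at least 1 FPKM in at least 4 libraries and were tested. A member can pass such a filter through its higher arm alone, so counts over the 19 are a description. Itga6, Lamc1 and Lamb2 rose in cFos cells (limma, Benjamini-Hochberg adjusted p under 0.05 over all tested genes) and none fell, which left 16 members short of the threshold. Among all 11162 tested genes 5.55% passed, 2.92% as higher and 2.62% as lower. Without adjustment, 9 members were higher and 2 lower at p under 0.05. The share of all tested genes at that threshold was not counted, so these counts are a description. The clone numbers pair the libraries, and with the clone as a block 8 members rose and 2 fell, against 8.79% of all genes in that fit, 4.51% as higher and 4.28% as lower. Those added were Itga5, Itga7, Itga11, Itgad and Itgb7 among the risen, with Itga1 and Itga9 as the fallen. The median log2 difference was 0.42 over the 19 tested members, 0.92 over the 5 tested laminin chains and 0.35 over the 14 tested integrin subunits, beside -0.06 over all tested genes.

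**Figure D1:**
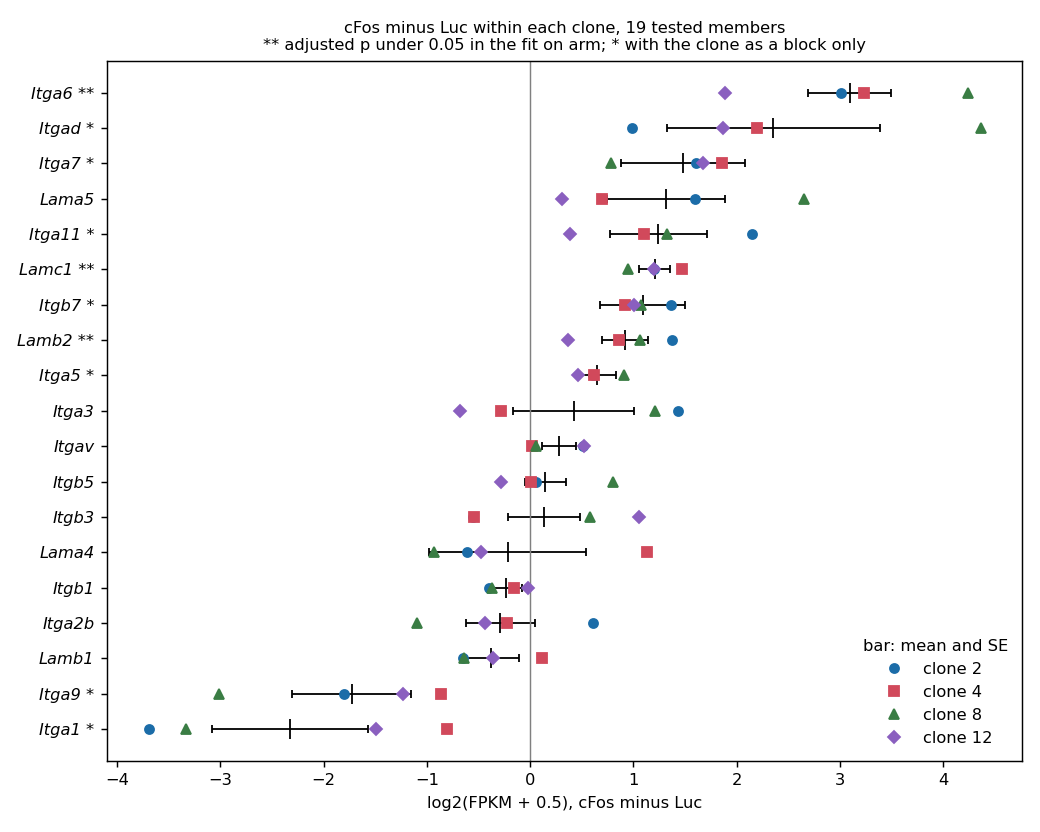
Differences in log2(FPKM + 0.5), cFos minus Luc, for the 19 tested members; coloured points are the 4 clones and black bars the mean with its standard error. In 10 members all 4 clones lie above 0 and in 3 all lie below it, with Itga6 at the top and Itga1 at the bottom.

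Direction was shared by all 4 clones in 13 of the 19 tested members. It was upward in 10, beside 15.3% of all tested genes, and downward in Itga1, Itga9 and Itgb1, beside 20.9% of all tested genes. The other 6, Itga2b, Itga3, Itgb3, Itgb5, Lama4 and Lamb1, moved one way in some clones and the other way in the rest. The arms did not overlap in 3 members that were higher in cFos cells and in 1 that was lower, Itga9, beside 5.86% and 7.8% of all tested genes.

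Lamc1 rose by a like factor in every clone. Lamc1 (chromosome 1, 155066052 to 155179916, mm9), the gamma chain of most laminins, had 111, 116, 122 and 102 FPKM in cFos clones 2, 4, 8 and 12, against 48.3, 41.6, 62.6 and 44.3 FPKM in Luc. The lowest cFos library lay above the highest Luc library. Its log2 difference was 1.20 with a standard error of 0.15 (adjusted p = 0.00285), and the ratio of the arms stayed between 1.94 and 2.80 in the single clones. Lamc3, a gamma chain of nerve and retina, had at most 0.00825 FPKM.

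Of the tested beta chains Lamb2 rose and Lamb1 did not pass. Lamb2 (chromosome 9, 108382193 to 108392861), the beta chain of kidney filter and synaptic basement membranes, had 74.8, 57.5, 69.5 and 35.6 FPKM in cFos clones 2, 4, 8 and 12, against 28.6, 31.4, 32.9 and 27.5 FPKM in Luc. The arms did not overlap, although cFos 12 was only just above Luc 8. The log2 difference was 0.92 with a standard error of 0.22 (adjusted p = 0.0460). This call held in 1 of the 8 fits that left out a library, the one without cFos 12 (adjusted p = 0.00611), and the adjusted p reached 0.132 in the others.

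Lamb1, the beta chain of the widespread laminins, had 44.9 ± 18.8 FPKM in cFos cells and 55.9 ± 10.6 FPKM in Luc cells, with a log2 difference of -0.38 that did not pass (adjusted p = 0.497). The ratio of Lamb2 to Lamb1 ran between 0.808 and 2.83 in cFos libraries and between 0.479 and 0.685 in Luc libraries, so Lamb2 exceeded Lamb1 in cFos 2 and cFos 8 and in no Luc library. Lamb3, a beta chain known from epithelia, stayed under the filter and so outside the test. It had 0.527, 1.18, 0.575 and 2.54 FPKM in cFos clones 2, 4, 8 and 12, against 0.0108, 0.0185, 0.00670 and 0.120 FPKM in Luc. Every cFos library was above every Luc library, at levels close to or under 1 FPKM except in cFos 12. In a fit with no filter its adjusted p was 0.0647.

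Neither tested alpha chain passed, with or without the block. Lama5, the alpha chain of most adult basement membranes, had 34.1 ± 17.9 FPKM in cFos cells and 14.0 ± 11.6 FPKM in Luc cells (log2 difference 1.31, adjusted p = 0.239). Its cFos library was higher in each clone, by ratios of 3.13, 1.63, 6.70 and 1.25 in clones 2, 4, 8 and 12. Lama4, a chain of vessel and stromal laminins, had 3.26 ± 2.90 FPKM in cFos cells and 4.63 ± 4.34 FPKM in Luc cells (log2 difference -0.22, adjusted p = 0.907). Lama4 was highest in clone 12 under both viruses, at 7.47 FPKM with cFos and 10.6 FPKM with Luc. Endothelial markers, which could travel with Lama4, summed to 0.0929 to 0.150 FPKM in cFos libraries and 0.155 to 0.432 FPKM in Luc libraries, and Cdh5 was listed at 0 in all of them.

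The remaining alpha chains were scarce. Lama1, the chain of early embryonic basement membranes, reached 5.06 FPKM in Luc 12 and 1.01 FPKM at most in a cFos library. Lama2, the chain of muscle and nerve laminins, reached 1.26 FPKM. Lama3, an alpha chain of epithelia that pairs with Lamb3, had at most 0.0958 FPKM in a cFos library and 0.153 FPKM in a Luc library. Alpha chains summed to 38.0 ± 14.4 FPKM in cFos cells and 21.3 ± 8.98 FPKM in Luc cells.

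**Figure D2:**
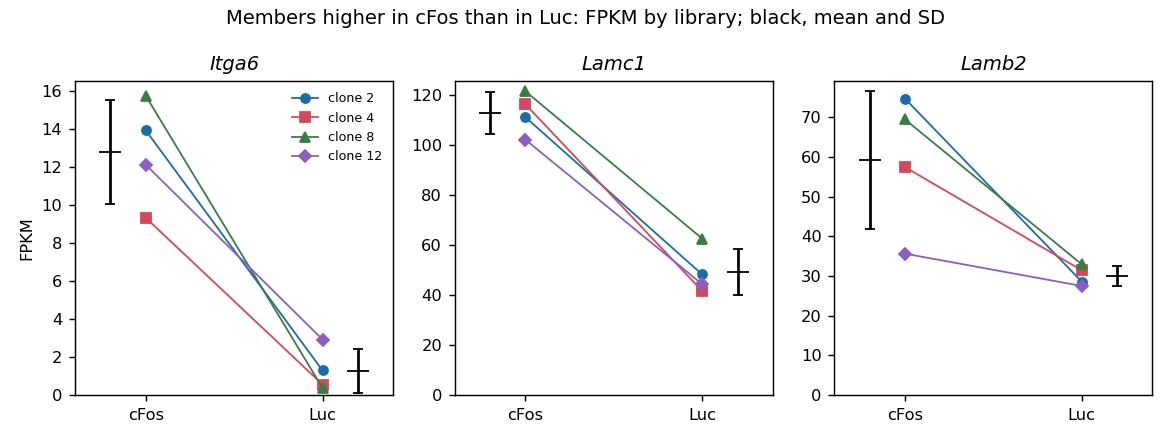
FPKM of the 3 members that rose; cFos libraries stand left of Luc libraries, lines join the libraries of a clone, and black bars are the mean with SD (n = 4). The arms do not overlap in any of the 3, and clone 12 has the smallest step in Lamb2, at 35.6 with cFos and 27.5 with Luc.

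Among the laminin-binding integrins, Itga6 stood out. Itga6 (chromosome 2, 71624996 to 71696484, mm9) pairs with Itgb1 or Itgb4 into laminin receptors. It had 13.9, 9.31, 15.7 and 12.1 FPKM in cFos clones 2, 4, 8 and 12, against 1.28, 0.545, 0.357 and 2.91 FPKM in Luc. The arms were far apart, and Luc 12 was the highest of the Luc libraries. The log2 difference was 3.09 with a standard error of 0.40 (adjusted p = 0.00383), the largest of the tested members. Itga6 and Lamc1 passed in all 8 fits that left out a library.

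The tables list Itga6 as a longer transcript of 6018 bases (NM_008397) and a shorter one of 5888 bases (NM_001277970). The longer one holds an extra exon of 130 bases, exon 25 of 26, on the plus strand of chromosome 2 at 71853534 to 71853663 of GRCm38. This exon encodes the cytoplasmic tail named alpha-6A, which the shorter transcript replaces with another tail. Its coding bases, 71853534 to 71853638, are shown because they tell the transcripts apart, with capitals at the 5 codons of the motif next to the membrane that integrin alpha tails share.
Itga6 exon 25, coding part: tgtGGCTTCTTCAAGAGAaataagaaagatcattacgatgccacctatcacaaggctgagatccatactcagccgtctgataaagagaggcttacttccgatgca

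The transcript with this exon held 13.2, 8.53, 13.9 and 9.57 FPKM in cFos clones 2, 4, 8 and 12, against 1.03, 0.493, 0.357 and 1.97 FPKM in Luc. The transcript without it held 0.672, 0.779, 1.82 and 2.53 FPKM in cFos and at most 0.942 FPKM in Luc. The longer form therefore took 79.1 to 95.2% of Itga6 in cFos libraries and 67.6 to 99.98% in Luc libraries, ranges that overlap. Clone 12 had the lowest share of the longer form under both viruses. Cufflinks divides reads between such overlapping transcripts by a model, and the Luc shares rest on levels under 3 FPKM.

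Itgb4, the hemidesmosome partner of Itga6, did not reach 1 FPKM in any library and had at most 0.306 FPKM. Itga6 was 49.5 to 55.2 times the Itgb4 level in cFos libraries and 3.85 to 12.5 times in Luc libraries. Itgb4 overlaps Galk1 in the tables, whose counting by strand is not stated. As Itga6 and Lamb3 are also known from epithelia, the 8 epithelial markers are given here. Their sum was 35.8 to 359 FPKM in cFos libraries and 1.73 to 28.8 FPKM in Luc libraries, most of it Krt19. Krt19 had 35.8, 149, 356 and 45.0 FPKM in cFos clones 2, 4, 8 and 12, against 8.04, 28.7, 1.39 and 5.19 FPKM in Luc, and it passed the same test as higher in cFos cells (adjusted p = 0.0492). Krt18 was the other marker that reached 1 FPKM, with at most 2.38 FPKM in a cFos library and 0.965 FPKM in a Luc library. Epcam had at most 0.367 FPKM, Krt14 0.234 FPKM and Krt5 0.0105 FPKM. Krt8 had at most 0.293 FPKM and Cldn4 at most 0.0158 FPKM. Epcam and Krt5 moved both ways between clones, while Krt18 and Krt8 were higher with cFos in each clone, as Krt19 was. Cdh1 went the other way and was lower with cFos in each clone. It had at most 0.0949 FPKM in a cFos library and 0.326 FPKM in a Luc library. No marker of that list was at 0 in all libraries. Krt19 was thus higher with cFos in each clone, as Itga6 was. Both genes were highest in cFos 8 among cFos libraries and lowest in Luc 8 among Luc libraries. The lowest cFos library was cFos 2 for Krt19 and cFos 4 for Itga6. The highest Luc library was Luc 4 for Krt19 and Luc 12 for Itga6. Whether any epithelial cells had a part in the Itga6 and Lamb3 levels was not tested.

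Itga7, the laminin receptor known from muscle, had 6.11, 7.94, 1.04 and 9.09 FPKM in cFos clones 2, 4, 8 and 12, against 1.67, 1.83, 0.395 and 2.51 FPKM in Luc. Clone 8 was low under both viruses, which made the arms overlap. Its log2 difference of 1.48 passed with the clone as a block (adjusted p = 0.0114) and not without it (adjusted p = 0.211), while leaving out cFos 8 gave 2.08 (adjusted p = 0.0334). Skeletal muscle markers summed to 0.154 to 0.980 FPKM in cFos libraries and 0.0649 to 0.805 FPKM in Luc libraries, with Myog and Ckm at 0. Itga3, a further laminin receptor, had 15.0 ± 5.12 FPKM in cFos cells and 14.3 ± 11.3 FPKM in Luc cells (log2 difference 0.42, adjusted p = 0.744), higher with cFos in clones 2 and 8 and lower in clones 4 and 12.

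With the clone as a block, of the tested collagen-binding alpha subunits Itga11 rose and Itga1 fell. Itga11 (chromosome 9, 62525662 to 62631786), the fibrillar collagen receptor of mesenchymal cells, had 60.2, 83.6, 80.1 and 109.9 FPKM in cFos clones 2, 4, 8 and 12, against 13.2, 38.6, 31.6 and 83.8 FPKM in Luc. It was higher in the cFos library of each clone, but Luc 12 reached the level of the cFos libraries. The log2 difference of 1.24 passed with the clone as a block (adjusted p = 0.0383) and not without it (adjusted p = 0.181), and without Luc 12 it was 1.67 (adjusted p = 0.0376).

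Itga1 (chromosome 13, 115748289 to 115892172), which binds type IV and fibrillar collagens, had 0.514, 0.512, 2.16 and 1.74 FPKM in cFos clones 2, 4, 8 and 12, against 12.6, 1.26, 26.2 and 5.82 FPKM in Luc. It was lower with cFos in each clone, and Luc 4 lay inside the range of the cFos libraries. The log2 difference of -2.33 passed with the clone as a block (adjusted p = 0.0376) and not without it (adjusted p = 0.121), and without Luc 4 it was -3.05 (adjusted p = 0.0252). Itga1 overlaps Pelo in the tables, a gene with 6.38 to 9.45 FPKM in cFos libraries and 8.09 to 12.8 FPKM in Luc libraries. Itga11 exceeded Itga1 by 37.1 to 163 times in cFos libraries and by 1.04 to 30.6 times in Luc libraries. Itga2, another collagen receptor, reached 1 FPKM only in Luc 2, at 1.85 FPKM.

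**Figure D3:**
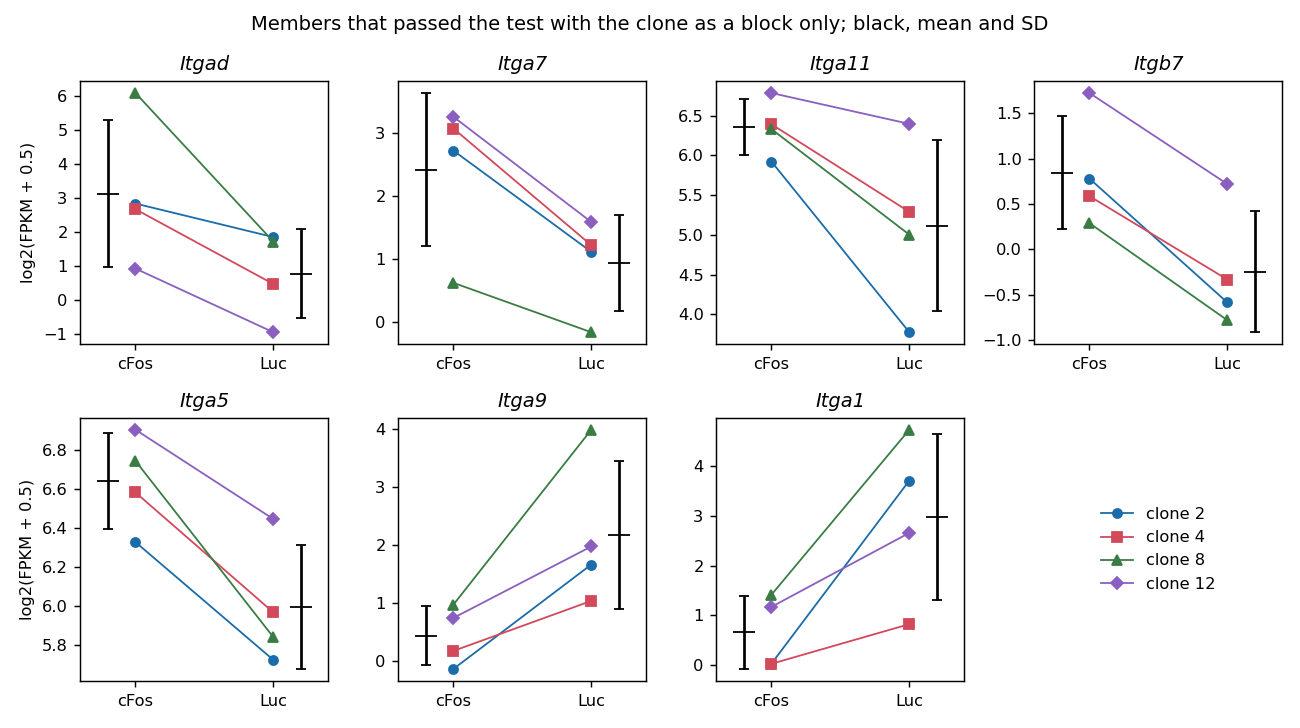
Levels as log2(FPKM + 0.5) of the 7 members that passed with the clone as a block only; cFos stands left of Luc, lines join the libraries of a clone and black bars are the mean with SD (n = 4). All lines of a member slope the same way, downward towards Luc in 5 members and upward in Itga9 and Itga1, while clones start at different heights.

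Itga5 (chromosome 15, 103174718 to 103197179), the fibronectin receptor, had the highest mean level of the alpha subunits in both arms. It had 79.8, 95.4, 107 and 119 FPKM in cFos clones 2, 4, 8 and 12, against 52.2, 62.0, 56.7 and 86.7 FPKM in Luc. Each clone was higher with cFos, by ratios of 1.38 to 1.88, and Luc 12 overlapped the cFos range. Its log2 difference of 0.65 passed with the clone as a block (adjusted p = 0.0238) and not without it (adjusted p = 0.0876). Without Luc 12 it was 0.80 (adjusted p = 0.0302). Itgav, which binds vitronectin and latent TGF-beta, had 59.7 ± 10.3 FPKM in cFos cells and 49.1 ± 8.41 FPKM in Luc cells (log2 difference 0.28, adjusted p = 0.403). Itga8, the nephronectin receptor, was under the filter, with at most 0.617 FPKM in a cFos library and at most 1.85 FPKM in a Luc library.

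Itga9 (chromosome 9, 118515827 to 118810121), which binds tenascin C and osteopontin, had 0.409, 0.627, 1.46 and 1.17 FPKM in cFos clones 2, 4, 8 and 12, against 2.67, 1.55, 15.4 and 3.43 FPKM in Luc. All cFos libraries were below all Luc libraries, and Luc 8 stood far above the rest. The log2 difference of -1.73 passed with the clone as a block (adjusted p = 0.0333) and not without it (adjusted p = 0.131). Without Luc 8 it was -1.12 (adjusted p = 0.106).

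Among leukocyte and platelet integrins Itgad had the highest value, Itgb7 and Itga2b reached 2.80 and 2.91 FPKM at most, and several others stayed under 1 FPKM. Itgad (chromosome 7, 135317460 to 135349017), a subunit of macrophages that pairs with Itgb2, had 6.65, 5.87, 67.4 and 1.40 FPKM in cFos clones 2, 4, 8 and 12, against 3.11, 0.890, 2.80 and 0.0202 FPKM in Luc. It was higher with cFos in each clone, and cFos 8 stood far above every other library. For Itgad the log2 difference of 2.35 passed with the clone as a block (adjusted p = 0.0385) and not without it (adjusted p = 0.243). Without cFos 8 the difference was 1.37 (adjusted p = 0.381). Itgb2, its partner, had at most 0.567 FPKM. Leukocyte markers summed to 0.266 to 0.421 FPKM in cFos libraries and 0.212 to 1.73 FPKM in Luc libraries, with Tyrobp at 0 in all. Cox6a2, which overlaps Itgad, had 2.31 FPKM in cFos 8 and at most 0.896 FPKM elsewhere.

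Other alpha subunits on chromosome 7 were also highest in cFos 8. Itgal had 1.48 FPKM there and Itgax 0.774 FPKM, and their next highest libraries were cFos 2 at 0.718 FPKM and 0.108 FPKM. Itgam, between them on the chromosome, had at most 0.0145 FPKM. Itgb7, a leukocyte beta subunit that pairs with Itga4 or Itgae, had 1.22, 1.00, 0.722 and 2.80 FPKM in cFos clones 2, 4, 8 and 12, against 0.167, 0.295, 0.0826 and 1.15 FPKM in Luc. Clone 12 was the highest under both viruses, so that Luc 12 overlapped the cFos libraries. For Itgb7 the log2 difference of 1.09 passed with the clone as a block (adjusted p = 0.0237) and not without it (adjusted p = 0.183). Its partners were scarce, Itga4 at no more than 0.128 FPKM and Itgae at no more than 0.0634 FPKM. Itga2b, the platelet alpha subunit, had 1.58 ± 0.606 FPKM in cFos cells and 2.12 ± 0.926 FPKM in Luc cells (log2 difference -0.29, adjusted p = 0.680). The platelet list, which counts Itga2b itself, summed to 1.81 to 3.66 FPKM in cFos libraries and 2.56 to 5.93 FPKM in Luc libraries. Its other members Ppbp and Gp1bb reached 2.48 FPKM in Luc 12 and 1.81 FPKM in cFos 2, and Gp9 was at 0 in all libraries. Their part in the Itga2b level was not tested.

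No beta subunit passed without the block. Itgb1, the common partner of collagen, laminin and fibronectin receptors, had the highest level of all members, 238 ± 44.8 FPKM in cFos cells and 277 ± 22.0 FPKM in Luc cells (log2 difference -0.24, adjusted p = 0.436). It was a little lower with cFos in each clone, by ratios of 0.757 to 0.984. Itgb5 had 95.3 ± 21.8 FPKM in cFos cells and 85.8 ± 17.2 FPKM in Luc cells (log2 difference 0.15, adjusted p = 0.736). Itgb3 had 3.83 ± 2.13 FPKM in cFos cells and 3.10 ± 0.559 FPKM in Luc cells (log2 difference 0.13, adjusted p = 0.872). Both pair with Itgav. The untested beta subunits stayed under 1 FPKM in every library, Itgb8 with at most 0.911 FPKM, Itgb6 with at most 0.0454 FPKM and Itgb2l with at most 0.0171 FPKM.

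Summed over subunits, alpha integrins came to 303 ± 51.5 FPKM in cFos cells and 196 ± 52.0 FPKM in Luc cells, and beta integrins to 340 ± 40.1 FPKM in cFos cells and 368 ± 35.6 FPKM in Luc cells. The alpha sum was higher with cFos in each clone, although Luc 12 at 261 FPKM lay above cFos 2 at 236 FPKM. Relative to Itga5, Itgb1 stood at 1.79 to 2.69 times in cFos libraries and at 3.45 to 5.44 times in Luc libraries. Itga5 kept a like share of the alpha sum in both arms, 33.2 ± 1.52% in cFos cells and 33.4 ± 4.07% in Luc cells. Itga6 took 4.30 ± 1.20% in cFos cells and 0.635 ± 0.471% in Luc cells. These sums and shares were not tested.

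**Figure D4:**
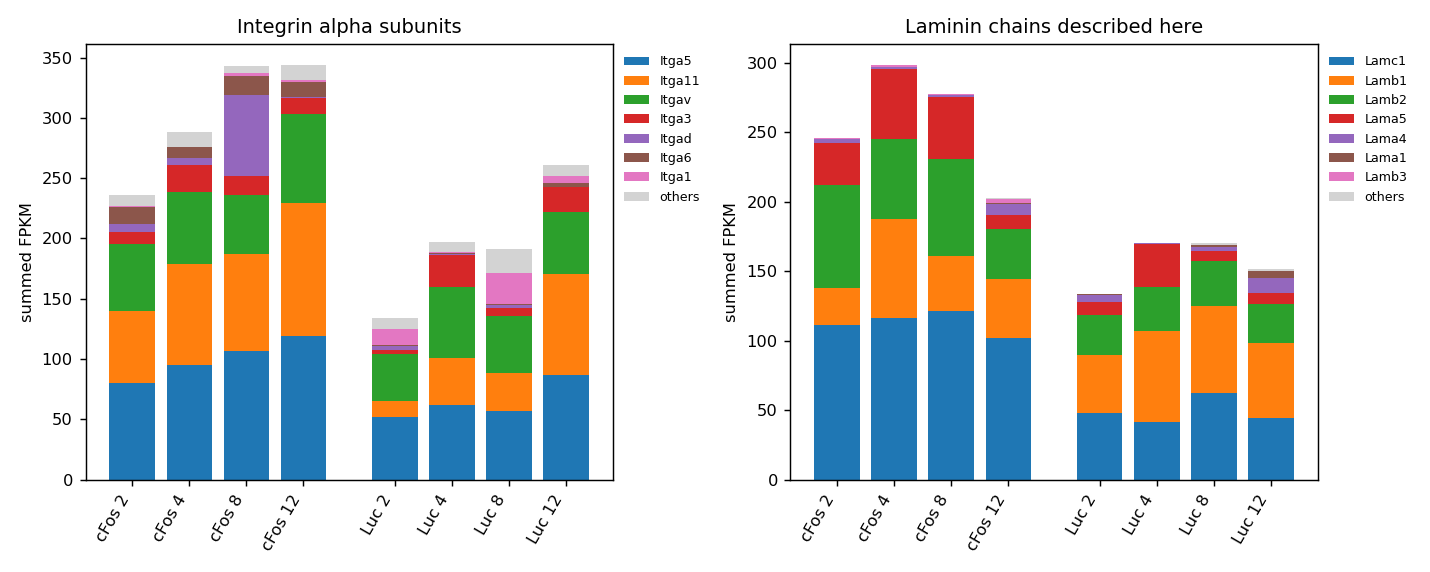
Summed FPKM of integrin alpha subunits (left) and the laminin chains described here (right) in each library, cFos libraries left of Luc libraries, with the 7 most abundant genes coloured and the rest in grey. Itga5, Itga11 and Itgav fill most of the alpha bars, Itgad adds 67.4 FPKM in cFos 8, and Lamc1 is the largest laminin chain in the cFos libraries, with 102 to 122 FPKM.

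Clones were compared in a model of arm plus clone. No member passed the F test of the clone terms (limma adjusted p under 0.05), beside 0.484% of all tested genes, and 11 members had an unadjusted p under 0.05, against 1839 of all 11162 genes. Itga7, with its low clone 8, came closest (adjusted p = 0.0736). Itga7 and Itgad passed when Luc 8 was left out. Only Itgb5 had more than 1 transcript and at least 1 FPKM in every library, which allowed a test of transcript use. Its leading transcript took 98.0 ± 0.745% in cFos cells and 98.5 ± 0.465% in Luc cells, a difference of -0.52 points (exact two-sided permutation test, p = 0.314, n = 4 per arm; the smallest p possible was 0.0286).

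Promoter windows of 250 bases before the annotated start were available from RefSeq (GRCm38.p6) for 23 members, of which 13 were tested, and of the 3 members that rose only Lamb2 had one. The AP-1 motif was searched as TGAGTCA or TGACTCA, which are the same site read on either strand, and the CRE motif as TGACGTCA, which reads alike on both strands; a match to either motif does not contain the other. None of the 14 promoters of tested members held an AP-1 match, against 3.13% of the promoters of all tested genes and 4.46% of all promoters. Itgax, which was not tested, held TGAGTCA 56 bases before its start, the only match among the 26 promoters of members. No member promoter held the CRE motif, against 1.55% of all promoters and 2.63% of the promoters of tested genes. The Lamb2 window is printed since Lamb2 is the risen member for which one was at hand. It lies on the plus strand at chr9:108479612-108479861, has 43.6% G and C, and no capitals appear because neither motif was found.
Lamb2 promoter: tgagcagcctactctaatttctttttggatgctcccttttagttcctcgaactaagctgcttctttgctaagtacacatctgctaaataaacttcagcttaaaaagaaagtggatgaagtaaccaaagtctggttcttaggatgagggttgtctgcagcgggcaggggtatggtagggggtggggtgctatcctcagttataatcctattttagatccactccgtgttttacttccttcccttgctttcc

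Genes that work with these subunits were taken from 4 lists. The lists were chosen with earlier results of these data known, so their shares of called genes are a description. Of 13 tested basement membrane partners of laminin, 4 rose and 2 fell, 46.2% of the list beside 5.55% of all genes, with a median log2 difference of 0.39. Col4a6, a type IV collagen chain, had 17.9, 8.59, 9.15 and 13.1 FPKM in cFos clones 2, 4, 8 and 12, against 1.85, 0.443, 0.580 and 1.04 FPKM in Luc, a log2 difference of 3.14 (adjusted p = 0.00180). Its neighbour on the X chromosome, Col4a5, had 53.8 ± 10.6 FPKM in cFos cells and 22.0 ± 2.06 FPKM in Luc cells (log2 difference 1.26, adjusted p = 0.00329). Col18a1 and Col15a1, collagens that sit at basement membranes, rose as well, by 2.37 and 3.30 on the log2 scale. Npnt, the ligand of the scarce Itga8, fell to 3.26 ± 1.13 FPKM in cFos cells, against 16.4 ± 8.92 FPKM in Luc cells (log2 difference -2.06, adjusted p = 0.0206). Agrn, a proteoglycan that binds laminin, fell by 1.84 on the log2 scale (adjusted p = 0.0439) and is named outside the rule, after its value was seen. With the clone as a block Ntn4 also rose, by 1.22 (adjusted p = 0.0219), and Nid1, the nidogen that links laminin to type IV collagen, fell by 0.64 (adjusted p = 0.0332). Col4a6, Col4a5 and Col18a1 passed in all 8 fits that left out a library. Npnt did not pass without cFos 2, cFos 4 or Luc 2 (adjusted p up to 0.0648), Col15a1 passed in 3 of those fits and Agrn in 2 (up to 0.116).

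Of 13 tested laminin receptors other than integrins and hemidesmosome partners, 2 rose and none fell at the adjusted threshold. That was 15.4% of the list, beside 5.55% of all tested genes, with a median log2 difference of 0.14. Lgals3, a lectin that binds laminin sugars, had 654, 622, 913 and 326 FPKM in cFos clones 2, 4, 8 and 12, against 39.9, 97.1, 27.2 and 57.3 FPKM in Luc, a log2 difference of 3.56 (adjusted p = 0.00259). Plec, the plakin that ties Itgb4 to keratins, rose by 1.32 (adjusted p = 0.0448) and did not pass with the clone as a block (adjusted p = 0.0578). With that block Sgcd, a dystrophin complex member, rose by 1.19 (adjusted p = 0.0201) and Mcam, an adhesion molecule that binds laminin, fell by 1.33 (adjusted p = 0.0190). Lgals3 passed in all 8 fits that left out a library, and Plec in 2 (adjusted p up to 0.120).

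Of 22 tested integrin ligands other than laminins, 3 rose and 3 fell. That was 27.3% of the list, beside 5.55% of all tested genes, with a median log2 difference of -0.42. Tgfb1, whose latent form binds Itgav integrins, had 34.0, 29.0, 25.9 and 27.2 FPKM in cFos clones 2, 4, 8 and 12, against 11.9, 11.3, 10.3 and 10.4 FPKM in Luc, a log2 difference of 1.36 (adjusted p = 8.46e-04). Tgfbi and Edil3, secreted ligands of Itgav and other integrins, rose by 3.62 and 4.42. Fbln5 and Fbn1, elastic fibre proteins with an RGD site, fell by 1.97 and 1.59. Thbs1, which is named outside the rule after its value was seen, fell to 560.3 ± 300.1 FPKM in cFos cells, against 1581 ± 249.7 FPKM in Luc cells. Tgfb1, Tgfbi, Edil3 and Fbln5 passed in all 8 fits that left out a library, Fbn1 in 4 (adjusted p up to 0.0722) and Thbs1 in 2 (up to 0.0994).

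Of 27 tested cytoplasmic partners of integrins, 1 rose and 1 fell. That was 7.41% of the list, near the 5.55% of all tested genes, with a median log2 difference of -0.24. With libraries scaled to the same sum of FPKM, none rose and 3 fell (limma adjusted p of Tns1 0.0539). Among all tested genes 327 rose and 306 fell in that fit. With no filter none rose and 1 fell (limma adjusted p of Tns1 0.0833), beside 286 and 175 of all genes. Tns1, which links integrin tails to actin, had 18.9, 17.2, 29.7 and 17.5 FPKM in cFos clones 2, 4, 8 and 12, against 7.84, 7.50, 14.9 and 8.66 FPKM in Luc (log2 difference 1.08, adjusted p = 0.0416). Zyx, the zyxin of mature adhesions, had 53.6 ± 6.28 FPKM in cFos cells and 97.3 ± 17.2 FPKM in Luc cells (log2 difference -0.84, adjusted p = 0.0180). Tns3 fell by 1.25 with the clone as a block (adjusted p = 0.0110) and did not pass without it (adjusted p = 0.0568). When a library was left out, Zyx did not pass without cFos 2 (adjusted p = 0.0649) or Luc 2 (adjusted p = 0.0514), and Tns1 passed in 1 fit of 8, with adjusted p up to 0.109 in the rest.

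**Figure D5:**
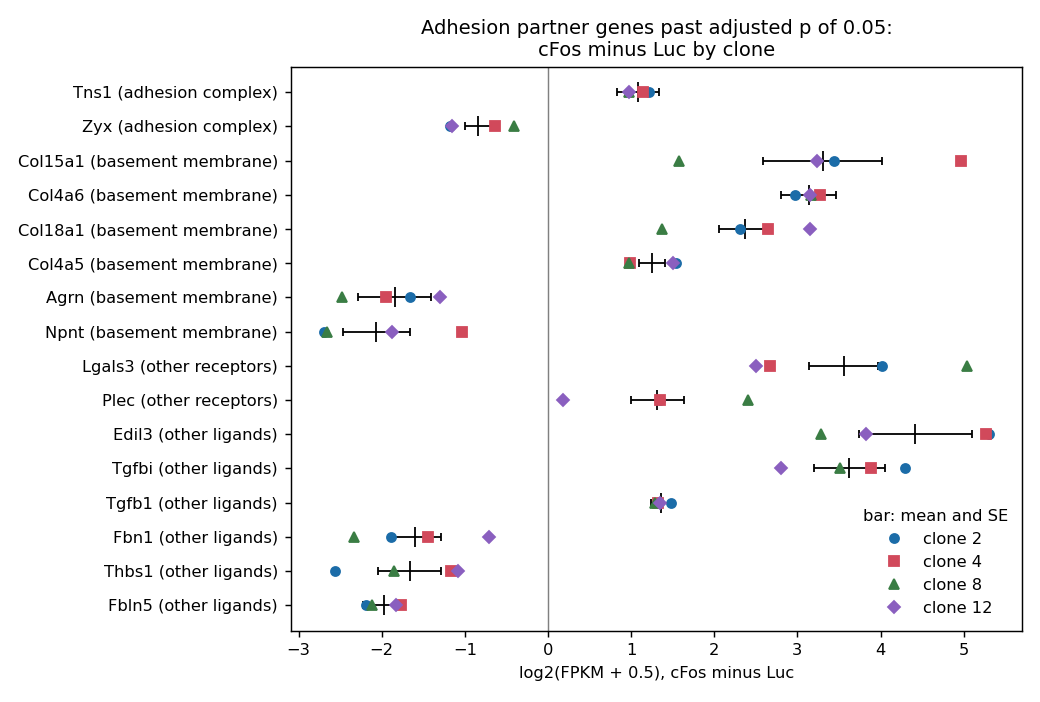
Differences in log2(FPKM + 0.5), cFos minus Luc, of the 16 partner genes past an adjusted p of 0.05, grouped by list; coloured points are the 4 clones and black bars the mean with its standard error. All clones of a gene lie on the same side of 0, 10 genes above it and 6 below it.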

How the data were processed

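Libraries were Illumina TruSeq preparations of polyadenylated RNA, per the labels' protocols. The submitters' processing notes name CASAVA 1.8.2, TopHat, Cufflinks and the mouse build mm9. TopHat and Cufflinks versions, options and annotation were not given in the sources used here. As the file headers show, each of the 8 deposited tables lists RefSeq transcripts with the authors' FPKM and its confidence limits, the transcript's coverage (a signal not normalized between libraries) and other columns such as length. Coverage times length gave the depth. No read counts are in these tables, so no counting interval was computed, and near-identical or overlapping genes can trade reads.

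Each table had 30769 entries. Symbols came from RefSeq for 30223 and from GENCODE for 184, and 362 entries, with 0.828% of the mean FPKM, had none. Entries of a symbol were summed, and 3 genes with a failed status were left out. Coordinates of genes are those of the tables (mm9, counted from 1).

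Arms were compared with limma 3.58.1 (R 4.3.3; lmFit, eBayes with trend) on log2(FPKM + 0.5), two-sided, for genes that reached 1 FPKM in 4 or more of the 8 libraries, with Benjamini-Hochberg adjustment over all 11162 of them and a threshold of 0.05. Libraries with the same clone number come from the same line. Their deviations from the arm means correlated by 0.174, 0.593, 0.349 and 0.437 in clones 2, 4, 8 and 12, so clone was added as a block in another fit. On simulated data of this comparison with 11162 genes, the main fit recovered 68% of genes changed 2-fold and 89% of those changed 4-fold, with 2 false calls. The fit with the block recovered 55% and 86%, also with 2 false calls. For the F test of clone terms, 83% of the genes simulated with a clone difference were found, beside 9 false calls. In the deposited data the order of the fits was the opposite, with 619 genes called in the main fit and 981 with the block. The simulated noise was the spread left after arm and clone were fitted, and only a small part of the genes was given a clone difference. The main fit thus met less spread between lines than the deposited libraries hold, so its rates can be too high. These rates therefore describe the simulated data and do not rank the fits on the deposited libraries.

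The counts and sums leave out a gene that fits the naming rule and is not reported here. The members and lists were chosen with earlier results of these data known. Members that passed in either fit are given in every library, other tested members as means, and members under the filter by their highest value. From each partner list up to 5 called genes of smallest adjusted p are named, and genes that passed with the block only are named besides. Results were recomputed with pseudocounts of 0.1 and 1, without the filter, with a 5 FPKM minimum, with median-ratio scaling, scaling to the same sum, the highest transcript per gene, no trend, the block, and leaving out each library.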

Additional observations from a re-analysis of the deposited data

Results flagged for a closer look

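Dixon's ratio of the gap to the whole range was taken in 38 groups of 4 libraries (19 tested members in 2 arms). It compares the highest or lowest library with the others. For normally distributed values, chance alone passes its limit in about 1 in 20 groups. The ratios were taken on FPKM and not on the log2 scale of the tests, so that rate need not hold here. The limit was passed in 3 groups.

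Itgad had 67.4 FPKM in cFos 8, while the next cFos library had 6.65 FPKM, a ratio of 0.920. Without cFos 8 its log2 difference was 1.37 (limma adjusted p = 0.381). Itga9 had 15.4 FPKM in Luc 8, while the next Luc library had 3.43 FPKM, a ratio of 0.864. Lama5 had 31.3 FPKM in Luc 4, while the next Luc library had 9.63 FPKM, a ratio of 0.879. Without Luc 4 the log2 difference of Lama5 was 1.78 (limma adjusted p = 0.0912).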

How the results depend on the processing

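Over the 19 tested members, 315 values were recomputed under other settings: 289 kept direction and side of the threshold, 9 lost a call, 11 gained one and 6 changed sign. The sign changes came when a library was left out: Itga3 without Luc 2 (-0.096), Itgb3 without cFos 8 (-0.085) or cFos 12 (-0.084), and Lama4 without cFos 4 (0.022), cFos 8 (0.040) or Luc 12 (0.32). Over these fits Itga3 ranged between -0.096 and 0.85, Itgb3 between -0.085 and 0.40, and Lama4 between -0.91 and 0.32. All 9 lost calls were those of Lamb2, 7 of them with a library left out, with adjusted p of 0.0865 without the filter and 0.0535 without the trend. The causes were not tested.

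With the clone as a block, called members were 8 higher and 2 lower, and called genes of all tested 503 higher and 478 lower, against 326 and 293 without it. Leaving out a library gave 2 to 4 members higher and 0 to 1 lower, and 150 to 319 genes higher and 85 to 295 lower among all tested, both lowest without cFos 2. With no filter 175 genes were lower, and partner genes called lower were 3 in place of 6 (1 to 7 with a library left out). Clone differences among all genes, 54 in the main model, numbered 0 with no filter, 6 at a minimum of 5 FPKM, 89 with the same sum and 0 to 115 with a library left out, and 0 to 2 among members, the most without Luc 8. Fos kept a log2 difference of 3.06 with no filter, where its adjusted p was 0.0540, and of 2.74 to 3.70 with a library left out; it fell short of the threshold without cFos 2, cFos 4, cFos 8 or Luc 2. Of 272 recomputed values of called partner genes, 223 kept their call and 49 lost it. The median log2 difference of all tested genes was -0.0061 with median-ratio scaling and -0.090 with the same sum.

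With 4 lines per arm and no repeat of a line, differences of the size seen in Itgav or Itgb1 did not pass, which does not show that they are absent, and differences at levels under 1 FPKM rest on few reads of unknown number.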
